A study of Mus musculus with 35 samples.

Results

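The 43 genes described here encode the lysosome's soluble hydrolases, together with the proteins that activate them or present their substrates. They were taken by symbol from a fixed list, and all 43 were found among the 31053 genes counted. By substrate they comprise 13 proteases, 13 glycosidases, 5 sulfatases, 6 lipid enzymes, 3 phosphatases or nucleases (2 acid phosphatases and Dnase2a) and 3 activators (Psap, Gm2a and Grn). Messenger RNA was measured by 3′-end sequencing in 35 libraries from whole kidneys of C57BL/6 mice at postnatal day 2, each a biological replicate by its label. The study asked how loss of Flcn in the kidney acts when Tfeb or Tfe3 is also lost.

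In the Flcn cross, 5 libraries labelled Flcn KO (Flcn flox/flox, Ksp-cre+) were compared with 5 controls. The Flcn/Tfeb cross held 4 mutant libraries, labelled Flcn/Tfeb DKO (Tfeb flox/flox, Flcn flox/flox and Ksp-cre+), and 3 controls. The Flcn/Tfe3 cross held 10 mutant libraries, labelled Flcn/Tfe3 DKO (Tfe3-/-, Flcn flox/flox and Ksp-cre+), and 8 controls, and these came in 2 count tables, called here set B (6 DKO and 3 control libraries) and set C (4 DKO and 5 control libraries). The controls are Flcn flox/flox animals, and the further alleles of the controls in the double-mutant crosses are not given in the sources used here. Ksp-cre is driven by the promoter of Cdh16, a cadherin of the renal tubule, and acts mainly in the distal nephron and collecting duct, so that other cells of each library keep Flcn and Tfeb. Tfe3, in contrast, is lost from every cell of the Tfe3-/- animals.

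Lysosomal hydrolases are made in the endoplasmic reticulum, tagged with mannose 6-phosphate in the Golgi and delivered to the acidic lumen of the lysosome, where they degrade proteins, glycans, sulfated polymers, lipids and nucleic acids. Inherited loss of most of them causes a lysosomal storage disease. Folliculin, the product of Flcn, holds the transcription factors TFEB and TFE3 in the cytoplasm through mTORC1, and these factors bind the CLEAR element, an E-box-containing sequence found upstream of many lysosomal genes.

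The promoters of the members were examined for that element, and the windows shown are those of some of the genes to which the results below return. RefSeq promoter windows on GRCm38.p6, from 250 bases before to 50 bases after each gene's start, were matched by symbol for 38 of the 43 members. Aga, Ctsb, Asah1, Galns and Ctsh had no entry. Capitals mark TCACGTG or TCATGTG, read on either strand, and each sequence is given 5′ to 3′ on the strand of the gene:
Ctsd, near window: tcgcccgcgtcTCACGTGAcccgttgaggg
Ctsd, far window: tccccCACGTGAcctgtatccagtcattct
Ctsa: tgTCACGTGAtgcagatgcTCACGTGAcca
Glb1: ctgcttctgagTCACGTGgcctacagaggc
Grn: gattctctaatCACATGAtccctagaaatg
Ppt1: agtccccgcggTCATGTGattgctaagatg
Tpp1: catgcTCATGTGacttatCACATGActaca
The Ctsd windows lie at chr7:142387908-142387937 and chr7:142388048-142388077 on the minus strand, with the match beginning 99 and 245 bases before the RefSeq start. That start lies inside the span of Ctsd in GENCODE, given further on, so that the near window falls within that span and the far window just upstream of it. The Ctsa window is chr2:164833758-164833787 on the plus strand. Those of Glb1 (chr9:114401018-114401047), Grn (chr11:102430286-102430315) and Ppt1 (chr4:122836229-122836258) are on the plus strand, and that of Tpp1 (chr7:105752207-105752236) is on the minus strand. Both Ctsd and Ctsa hold the 8-letter palindrome TCACGTGA, which occurred in 3 of 38 members (7.89%; the other is Gla) and in 1.12% of 27025 genes with a promoter window. TCACGTG, which each TCACGTGA contains, was present in 9 of 38 members (23.7%: Ctsa, Ctsd, Lgmn, Glb1, Gla, Gaa, Naglu, Sgsh and Arsa) and in 4.29% of all genes. TCATGTG was present in 7 members (18.4%: Ctsa, Ctss, Tpp1, Gla, Ppt1, Acp5 and Grn) and in 4.31% of all genes. The core CACGTG, contained in TCACGTG, was in 11 members (28.9%) and 8.09% of all genes, and the full 10-letter CLEAR palindrome was in 0 of 38 members and 0.37% of all genes. These are matches of letters in a window, and no binding was measured.

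The libraries held 1652649 to 4239356 counts on genes (median 2992169). Flcn was not lower in the libraries labelled Flcn KO (10.4 to 19.0 CPM, counts scaled by the size of the library) than in their controls (12 to 16.5 CPM), and Tfe3 was 12.8 to 24.7 CPM in the libraries labelled Flcn/Tfe3 DKO and 15.5 to 25.1 CPM in their controls. Tfeb was 6.16 to 7.51 CPM in the libraries labelled Flcn/Tfeb DKO and 6.62 to 18.7 CPM in their controls. The position of each deleted segment relative to the sequenced 3′ end is not given in the sources used here, so the labels are neither checked nor contradicted by these values. The renal tubule genes Cdh16 and Umod were detected in every group, as was Csf1r, a receptor of macrophages, which are rich in lysosomes. Mitochondrial genes took 4.47% to 11.9% of counts in the Flcn and Flcn/Tfeb crosses and 1.79% to 7.80% in the Flcn/Tfe3 cross.

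In the Flcn cross, cathepsin D was the 1 member with an adjusted p under 0.05 by edgeR. Ctsd, the lysosome's main aspartic protease, was at 500.7, 420.2, 487.6, 408.0 and 456.8 CPM in the 5 controls. In the libraries labelled Flcn KO it was at 769.6, 715.5, 880.1, 891.8 and 758.2 CPM. Every Flcn KO library thus lay above every control, with no overlap. The means were 803.0 ± 78.4 and 454.6 ± 40.6 CPM (SD, n = 5 each), a 1.77-fold difference. The log2 fold change was 0.82 ± 0.12 (SE; 95% interval 0.59 to 1.05) with an adjusted p of 0.00146 by edgeR's quasi-likelihood test with Benjamini-Hochberg adjustment over all genes. Ctsd was called at an adjusted p under 0.05, the threshold used throughout, in each of 10 fits that left out 1 library. Ctsd lies at chr7:142375911-142388038 on the minus strand, and an exon of the gene model Gm49369 overlaps it on the same strand.

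**Figure D1:**
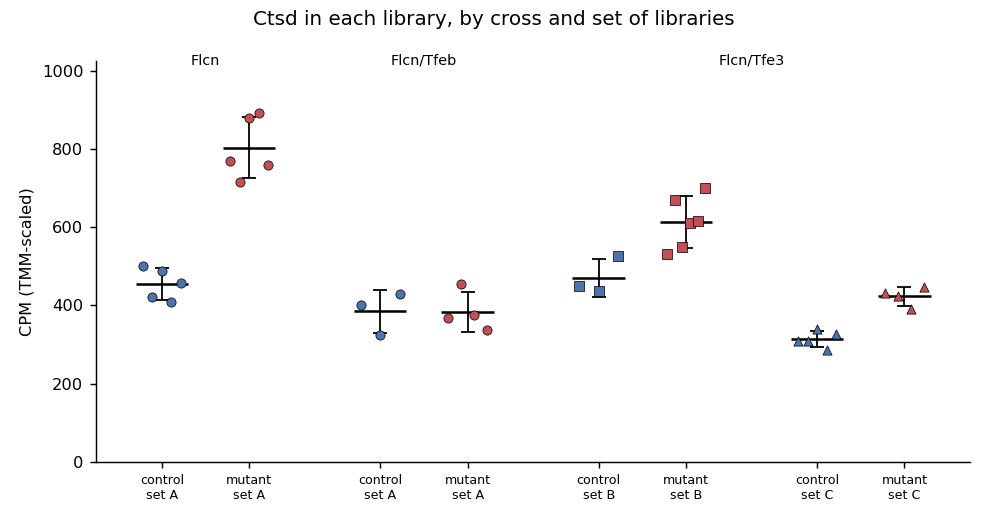
Ctsd in CPM (vertical axis, from 0) for each library, by cross and set. Circles are set A (the Flcn and Flcn/Tfeb crosses), squares set B and triangles set C, blue for controls and red for mutants. Lines are group means and bars 1 SD. The Flcn KO libraries (715.5 to 891.8 CPM) all lie above their controls (408.0 to 500.7 CPM), the Flcn/Tfeb DKO libraries (336.1 to 455.5 CPM) overlap theirs (324.0 to 430.1 CPM), and in each set of the Flcn/Tfe3 cross the DKO libraries lie above the controls of that set. Each cross was scaled separately.

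Over the whole group, 1 of the 42 members tested was called in the Flcn cross, and 0.52% of all 11932 genes tested were called (0.453% higher and 0.067% lower). Ctsk, the cysteine protease of bone resorption, was too low to be tested (1.1 to 6.0 CPM). Of the 42 members, 33 had a log2 fold change above 0 and the median was 0.11, where 48.5% of all genes were above 0 and their median was -0.01. Leaving out libraries in turn gave medians of 0.05 to 0.15 for the members, with 0.05 (27 of 42 above 0) without control replicate 4 and 0.07 without Flcn KO replicate 2. Without adjustment, at a p under 0.05, 8 members were higher (5.25% of all genes) and 1 was lower (3.81% of all genes). The groups did not overlap for 5 members, which were all higher in Flcn KO (1.67% of all genes), and for 0 members that were lower (0.712% of all genes). The members' summed level was 3247.8 to 3892.5 CPM in the controls (median 3681.0) and 4153.4 to 4350.3 CPM in Flcn KO (median 4191.8), a sum weighted towards members with many counts such as Ctsd.

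The other 4 members whose groups did not overlap were Hexa, Aga, Asah1 and Grn, and none of them was called. Hexa, the alpha subunit of beta-hexosaminidase, was at 64.7, 73.9, 71.7, 56.0 and 62.9 CPM in the controls. In Flcn KO it was at 100.2, 105.3, 85.4, 92.4 and 77.9 CPM, so that its lowest mutant library lay just above its highest control. Its log2 fold change was 0.49 ± 0.12 (SE) with an adjusted p of 0.081 by edgeR.

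Grn encodes progranulin, a secreted and lysosomal protein whose cleavage products support several hydrolases. It was at 339.3, 346.7, 372.0, 238.9 and 330.9 CPM in the controls and at 430.3, 470.7, 478.3, 580.4 and 438.6 CPM in Flcn KO. Control replicate 4 was the lowest of its group and Flcn KO replicate 4 the highest of the other. The log2 fold change was 0.56 ± 0.13 (adjusted p = 0.076 by edgeR). With DESeq2 in place of edgeR, Ctsd, Grn and Hexa were called (0.947% of all genes), and with the mitochondrial share as a covariate in edgeR, Asah1 was called as well (1.23% of all genes).

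Asah1, acid ceramidase, was at 41.2, 39.9, 43.9, 24.3 and 25.9 CPM in the controls and at 58.3, 56.7, 48.8, 57.6 and 44.7 CPM in Flcn KO (log2 fold change 0.63 ± 0.17, adjusted p = 0.148 by edgeR). Control replicates 4 and 5 were well below the other controls, and the lowest Flcn KO library lay just above the highest control. These libraries also stood apart in composition. Mitochondrial genes took 4.88% and 4.93% of their counts, against 9.98% to 11.1% in control replicates 1 to 3 and 7.33% to 11.1% in Flcn KO. Their summed member level was 3305.3 and 3247.8 CPM, against 3681.0 to 3892.5 CPM in the other controls. The part of this in the values of Asah1 and of the other members was not tested beyond the fit with the mitochondrial share, which gave a log2 fold change of 0.58 for Asah1. Aga cleaves the bond between asparagine and the glycan of a glycoprotein. It was at 29.7, 30.8, 27.8, 26.3 and 23.5 CPM in the controls and at 40.4, 33.7, 39.5, 36.1 and 31.8 CPM in Flcn KO (log2 fold change 0.40 ± 0.14, adjusted p = 0.344 by edgeR), and the groups were separated by a narrow gap. Exons of Tmem202 and Fam171a2 overlap Hexa and Grn on the opposite strand, and whether the counting used the strand is not given in the sources used here.

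**Figure D2:**
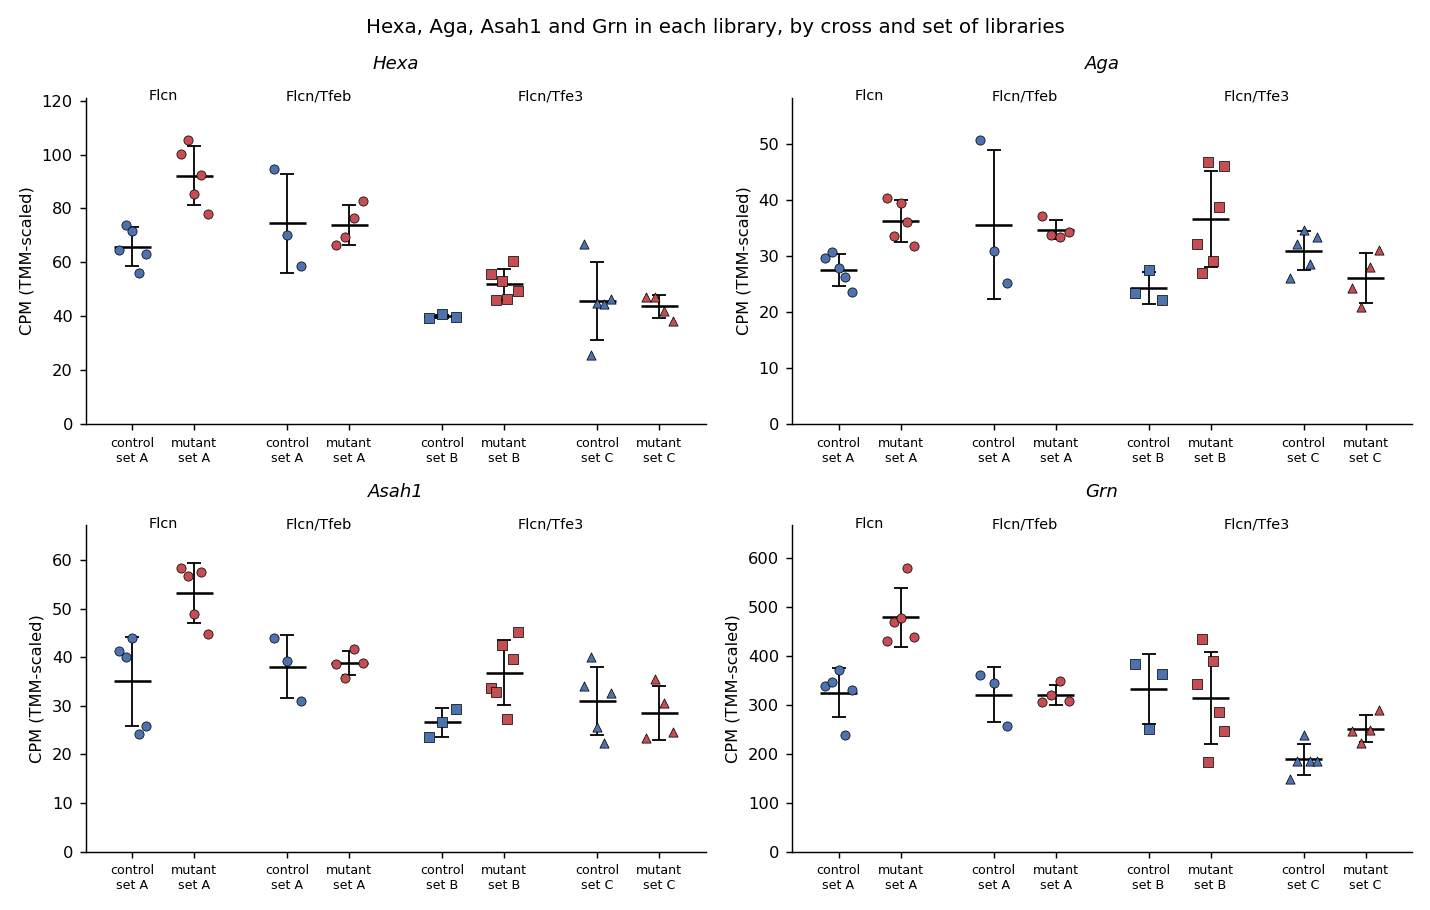
Hexa, Aga, Asah1 and Grn in CPM (vertical axes, from 0) for each library by cross and set, with the symbols, group means and SD of the plot of Ctsd. In the Flcn cross the lowest Flcn KO library lies above the highest control for each of the 4 (for Hexa, 77.9 against 73.9 CPM). With sets B and C pooled, the groups of the other crosses overlap for all 4.

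Among the proteases of the Flcn cross, 9 of 12 tested were above 0, with a median log2 fold change of 0.09. After Ctsd the next was Ctsa, the carboxypeptidase that protects lysosomal sialidase and beta-galactosidase, at 123.2 to 207.7 CPM in the controls (median 157.6) and 167.4 to 224.7 CPM in Flcn KO (median 191.4). Its groups overlapped and the log2 fold change was 0.29 (adjusted p = 0.533 by edgeR). The cysteine cathepsins lay nearer to 0, from 0.27 for Ctsc, which activates granule serine proteases, to -0.10 for Ctsl. Tpp1, tripeptidyl peptidase, had the lowest value of the class. It was at 93.4, 110.2, 94.2, 147.0 and 106.2 CPM in the controls and at 105.5, 109.6, 82.4, 66.5 and 115.0 CPM in Flcn KO, with broad overlap (log2 fold change -0.20, adjusted p = 0.722 by edgeR). Without control replicate 4 its log2 fold change was -0.07.

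Of the 13 glycosidases, 11 were above 0, with a median of 0.10. The largest value was that of Manba, beta-mannosidase, which was low and variable. Its controls were at 10.5, 14.7, 4.3, 4.7 and 5.9 CPM and its Flcn KO libraries at 14.1, 6.6, 12.6, 17.1 and 11.5 CPM, with overlap (log2 fold change 0.62 ± 0.34, adjusted p = 0.605 by edgeR). The lowest was Glb1, beta-galactosidase, at 47.0, 73.0, 76.0, 80.3 and 40.6 CPM in the controls and 54.0, 53.8, 66.2, 32.9 and 60.9 CPM in Flcn KO (log2 fold change -0.22). Leaving out libraries in turn gave -0.36 (without control replicate 5) to -0.11 (without Flcn KO replicate 4) for Glb1, whose promoter window also holds TCACGTG, and 0.45 (without control replicate 4) to 0.95 (without control replicate 2) for Manba. Gusb, Neu1 and Man2b1, which remove glucuronic acid, sialic acid and alpha-linked mannose, were within 0.02 of 0.

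The sulfatases, which strip sulfate from glycosaminoglycans and sulfolipids, had 4 of 5 members above 0 and a median of 0.15. Ids, the iduronate sulfatase, was highest at 0.22, with controls at 21.6, 40.9, 28.4, 19.3 and 30 CPM and Flcn KO at 35.0, 21.3, 31.8, 44.3 and 32.3 CPM. Arsb, the N-acetylgalactosamine 4-sulfatase, was lowest at -0.22, with controls at 8.1, 9.2, 13.9, 10.7 and 6.5 CPM and Flcn KO at 6.8, 11.2, 5.5, 7.0 and 9.4 CPM. The groups of both overlapped along most of their range. Leaving out libraries in turn gave 0.10 (without control replicate 4) to 0.39 (without control replicate 2) for Ids and -0.40 (without Flcn KO replicate 2) to -0.08 (without control replicate 3) for Arsb.

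Of the 6 lipid enzymes, 5 were above 0, with a median of 0.06. Next to Asah1 stood Ppt1, a thioesterase that removes palmitate from proteins, at 46.8 to 73.3 CPM in the controls and 63.8 to 80.6 CPM in Flcn KO (log2 fold change 0.33, adjusted p = 0.455 by edgeR). Its relative Ppt2 had the lowest value, -0.20, at 25.4, 24.8, 30, 34.0 and 27.1 CPM against 24.8, 32.5, 24.0, 22.2 and 19.4 CPM. It was -0.34 without Flcn KO replicate 2 and -0.11 without control replicate 4. Smpd1 and Lipa, acid sphingomyelinase and acid lipase, were at 0.04 and 0.08.

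The 3 phosphatases or nucleases had a median of 0.25. Acp5, the tartrate-resistant acid phosphatase of macrophages and osteoclasts, had the largest value of all members, a log2 fold change of 1.04 ± 0.39 (adjusted p = 0.394 by edgeR), but rested on 2 to 28 counts per library. It was at 1.0, 2.8, 2.1, 3.7 and 4.1 CPM in the controls and 3.9, 8.1, 9.6, 2.5 and 5.0 CPM in Flcn KO, where 3 counts correspond to 0.708 to 1.82 CPM over the 35 libraries. Acp2, lysosomal acid phosphatase, was at 53.2, 49.1, 52.5, 51.3 and 59.4 CPM against 46.2, 43.4, 55.8, 58.2 and 62.9 CPM, a difference of 0.00 that changes sign with the scaling.

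The activators did not move together. Grn was higher, whereas Gm2a, which lifts the ganglioside GM2 out of the membrane for beta-hexosaminidase, was the only member lower at an unadjusted p under 0.05. Gm2a was at 95.4, 98.7, 91.0, 118.7 and 100.3 CPM in the controls and at 79.2, 86.6, 73.2, 58.9 and 91.1 CPM in Flcn KO. The lowest control lay just below the highest Flcn KO library, and the log2 fold change was -0.37 ± 0.12 (adjusted p = 0.333 by edgeR). Gm2a and its enzyme's subunit Hexa therefore had fold changes of opposite sign in the same libraries. Psap, the precursor of the saposins, was at 168.2 to 245.9 CPM in the controls and 143.4 to 265.5 CPM in Flcn KO (log2 fold change -0.12).

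**Figure D3:**
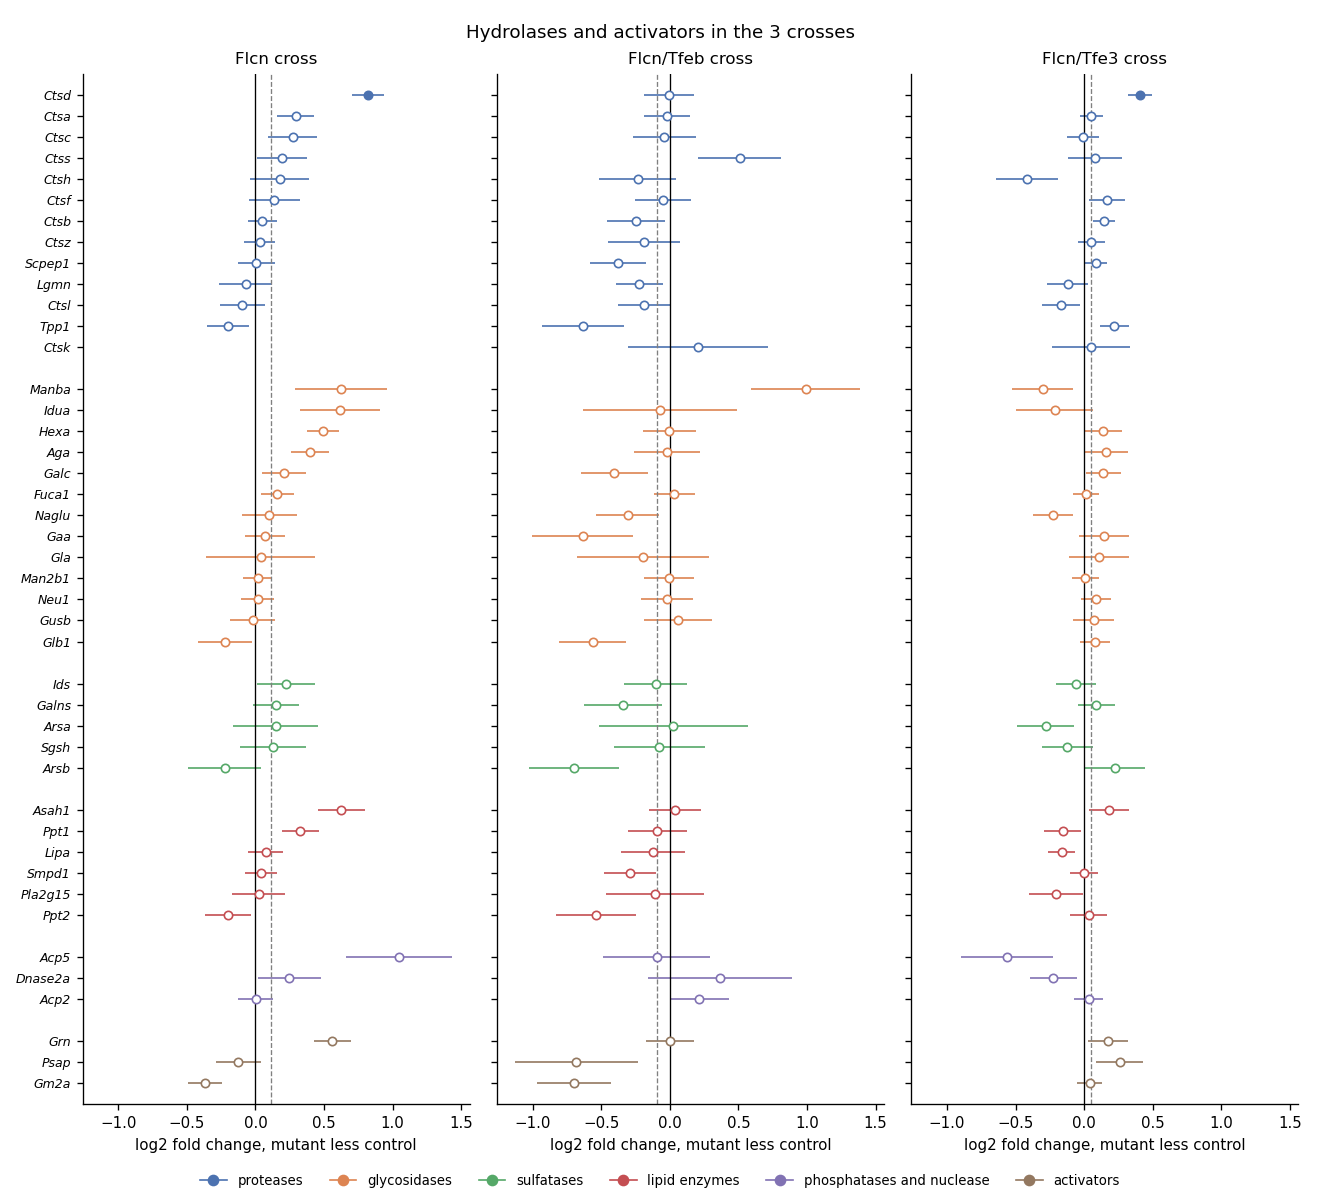
Log2 fold change of each member, mutant against control (horizontal axis), in each of the 3 crosses, with members grouped by class. Bars are 1 SE, filled points have an adjusted p under 0.05 and the dashed line is the median of the members. The filled points are those of Ctsd, at 0.82 in the Flcn cross and at 0.41 in the Flcn/Tfe3 cross. The medians are 0.11 (Flcn), -0.10 (Flcn/Tfeb) and 0.05 (Flcn/Tfe3), and Ctsk has no value in the Flcn cross.

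A further 27 luminal lysosomal proteins outside the group of 43 gave 12 of 23 tested above 0 in the Flcn cross (median 0.04) and 0 called. Past an unadjusted p under 0.05, the peptidase Dpp7 (0.53) and the phosphodiesterase Smpdl3a (0.41) were higher and 0 of the 23 were lower. The 7 genes that tag hydrolases with mannose 6-phosphate, receive that tag or activate sulfatases had 5 above 0 and 0 called, and 0 passed an unadjusted p under 0.05. Of the cathepsin inhibitors tested, Cst3 was at -0.02 and Cstb, which inhibits cysteine cathepsins in the cytosol, at 0.44 with an unadjusted p under 0.05.

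Cell type markers moved in the same libraries. In whole kidney RNA, fewer cells of a type and less RNA per cell cannot be told apart. The summed level of 6 intercalated cell markers was 171.2 to 236.6 CPM in the controls and 370.4 to 476.0 CPM in Flcn KO, and 2 of them were called (Atp6v1g3 and Atp6v0d2, subunits of the proton pump). Of the 6, 4 were above 0, while Slc26a4 was at -0.22 and Atp6v1b1 at -0.02. The 5 thick ascending limb markers summed to 837.2 to 1237.5 CPM and 1197.8 to 1573.8 CPM, with overlap. Of the 4 tested, 3 were above 0 (median 0.16), with Umod called and Cldn16 at -0.29. Of the 7 principal cell markers 5 were above 0. Scnn1b, a subunit of the epithelial sodium channel, was called higher (0.58, adjusted p = 0.049 by edgeR), the water channel gene Aqp2 was at -0.48 (adjusted p = 0.202), and their sum overlapped between controls (445.3 to 549.2 CPM) and Flcn KO (398.7 to 517.1 CPM). In the other direction, the 5 podocyte markers summed to 377.7 to 405.7 CPM in the controls and 312.0 to 365.7 CPM in Flcn KO, without overlap, with 0 of 5 above 0 and 0 called. Of 9 proximal tubule markers 0 were above 0 and 0 were called. Of 3 nephron progenitor markers tested, 1 was above 0 (Crym, 0.09), and Six2 (-0.997) and Eya1 (-0.70) were lower at an unadjusted p under 0.05. The sums of this list overlapped (35.9 to 45.0 CPM in the controls and 26.6 to 37.9 CPM in Flcn KO). Of 5 stromal markers 1 was above 0, and Pdgfrb and Pdgfra were lower at an unadjusted p under 0.05. Of 5 red blood cell markers 5 were above 0, and 0 markers of these 3 lists were called. The 12 macrophage markers summed to 184.4 to 299.5 CPM in the controls and 235.3 to 258.4 CPM in Flcn KO, 8 of 11 tested were above 0, and 0 were called. The part of these markers in the level of Ctsd and of the other members was not tested.

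In the Flcn/Tfeb cross, no rise of Ctsd was measured. It was at 401.9, 324.0 and 430.1 CPM in the 3 controls and at 368.3, 455.5, 375.1 and 336.1 CPM in the libraries labelled Flcn/Tfeb DKO. The groups overlapped, although DKO replicate 2 lay above the highest control. The log2 fold change was -0.01 ± 0.18, and its 95% interval of -0.37 to 0.35 does not reach the interval of the Flcn cross. The other 4 members that separated the groups of the Flcn cross overlapped here as well, at log2 fold changes of 0.00 for Hexa, -0.02 for Aga, 0.04 for Asah1 and 0.00 for Grn.

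Hexa was at 94.8, 70.1 and 58.8 CPM in the controls and 66.5, 69.6, 76.6 and 82.8 CPM in the DKO libraries. Grn was at 361.8, 344.4 and 258.0 CPM against 305.6, 320.7, 350.2 and 308.4 CPM. The DKO libraries of both lay inside the range of the controls. Aga was at 50.7, 30.9 and 25.3 CPM against 37.2, 33.9, 33.4 and 34.4 CPM, and Asah1 at 44.0, 39.2 and 31.1 CPM against 38.7, 35.7, 41.7 and 38.8 CPM, again with the controls more spread than the DKO libraries.

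By edgeR, 0 of the 43 members and 0 of 12469 genes (0%) were called in this cross, and DESeq2 called 0 as well. Past an unadjusted p under 0.05, edgeR gave 1 member that was higher, Manba (1.85% of all genes), and 2 that were lower, Gm2a and Glb1 (3.21% of all genes). A log2 fold change above 0 was seen in 10 of 43 members against 47.9% of all genes, and the median was -0.10 against -0.02 for all genes. That median was -0.17 to -0.06 when libraries were left out in turn (without DKO replicates 1 and 3), and with the mitochondrial share as a covariate it was -0.0015, with 21 of 43 members above 0. The groups did not overlap for 1 member, Arsb, which was at 14.5, 10.5 and 12.6 CPM in the controls and 9.0, 4.9, 6.1 and 10.4 CPM in the DKO libraries (2.94% of all genes were separated in that direction, 2.71% in the other).

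Several of these values turned on 1 library. Psap was at 79.2, 76.7 and 349.0 CPM in the controls and 108.1, 122.5, 103.9 and 90.6 CPM in the DKO libraries, so that control replicate 3 stood far above all others. In that library mitochondrial genes took 4.47% of counts, against 9.16% to 11.9% in the other 6, and 9.07% of reads lay on no gene, against 17.8% to 19.9%. The log2 fold change of Psap was -0.68 ± 0.45 with this library and 0.44 without it. Tpp1 was at 75.8, 51.9 and 152.5 CPM against 65.7, 54.2, 62.2 and 61.4 CPM, and its fold change went from -0.63 to -0.06 without control replicate 3. Gm2a was at 70.2, 59.1 and 133.8 CPM against 67.6, 51.7, 49.6 and 49.2 CPM (-0.70 with that library, -0.24 without it, adjusted p = 0.797 and 0.948 by edgeR). With all libraries and the mitochondrial share as a covariate, the sign of these differences was reversed, to 0.89 for Psap, 0.29 for Tpp1 and 0.063 for Gm2a, and none was called. Ctsb, Ctsz, Gaa, Galns and Ppt2 were also highest in control replicate 3.

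The values of Glb1 and Manba turned on other controls as well. Glb1 was at 68.6, 31.5 and 54.7 CPM in the controls and 39.0, 32.0, 33.8 and 34.8 CPM in the DKO libraries (log2 fold change -0.56 ± 0.24), where control replicate 2 lay below every DKO library. Its fold change was -0.32 without control replicate 1 and -0.80 without control replicate 2. Manba was at 9.5, 4.4 and 3.6 CPM against 8.3, 12.9, 12.6 and 11.1 CPM (0.99 ± 0.40), and control replicate 1 lay within the DKO range. Its fold change was 1.497 without control replicate 1 and 0.68 without control replicate 3. With the mitochondrial share as a covariate the values were -0.32 for Glb1 and 0.48 for Manba. The adjusted p was 0.797 by edgeR for both.

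**Figure D4:**
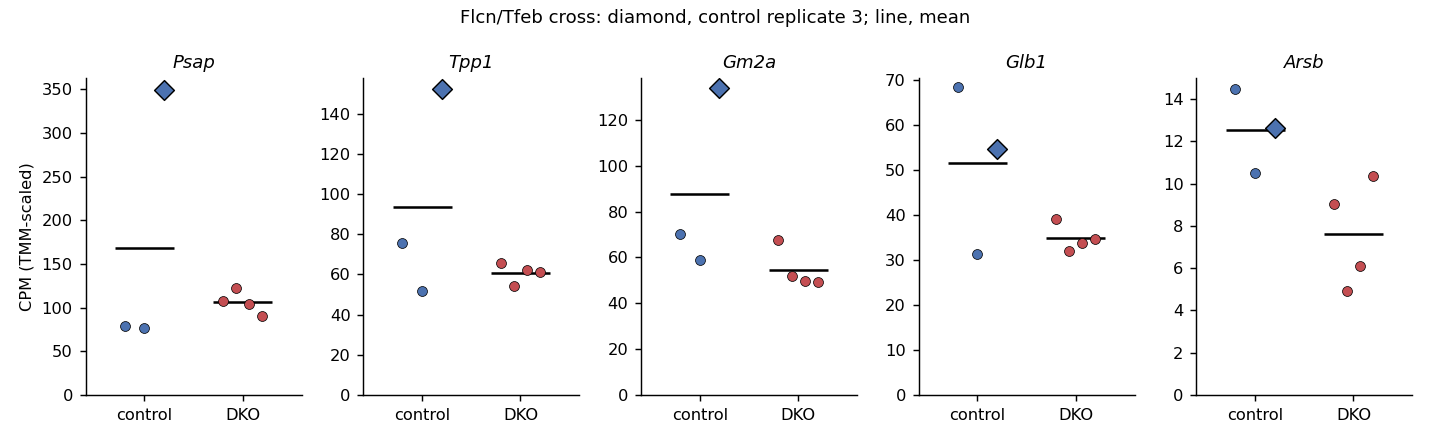
Psap, Tpp1, Gm2a, Glb1 and Arsb in CPM (vertical axes, from 0) for the 3 controls and the 4 Flcn/Tfeb DKO libraries. The diamond is control replicate 3 and lines are group means. Control replicate 3 has the highest value for Psap (349.0 CPM), Tpp1 (152.5 CPM) and Gm2a (133.8 CPM), and does not for Glb1 or Arsb.

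Class by class, the medians in this cross were -0.19 for the proteases, -0.02 for the glycosidases, -0.10 for the sulfatases and -0.11 for the lipid enzymes, whereas the phosphatases or nucleases stood at 0.21. The median of the 3 activators was Psap's own value, which turned on control replicate 3. The summed level of the members was 2866.1 to 3758.5 CPM in the controls and 2961.6 to 3200.6 CPM in the DKO libraries, which lay within the range of the controls. Of the 27 further luminal proteins, 6 of 24 tested were above 0 and 0 passed an unadjusted p under 0.05. Among the 7 genes of tagging and sulfatase activation 2 were above 0. Of 11 macrophage markers tested 10 were above 0 (median 0.14) and 0 were called, with C1qa at 0.72 (unadjusted p under 0.05 by edgeR). The macrophage markers summed to 169.8 to 225.2 CPM in the controls and 180.8 to 271.5 CPM in the DKO libraries, with overlap. The 6 intercalated cell markers summed to 192.1 to 227.9 CPM in the controls and 257.3 to 269.0 CPM in the DKO libraries. Of the 6, 4 were above 0 (median 0.12) and 0 were called, with Foxi1 at -1.01. The part of these markers in the members' levels was not tested.

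The difference between the Flcn/Tfeb DKO effect and the Flcn KO effect was tested as an interaction, each effect taken against its own controls. For Ctsd it was -0.83 ± 0.19 on the log2 scale (95% interval -1.21 to -0.45). Its adjusted p over all genes was 0.379 by edgeR and 0.010 by DESeq2, so the call depends on the tool. By edgeR 0 of 43 members were called and 2 of 13049 genes (0.0153%) were. An unadjusted p under 0.05 and a lower effect in the Flcn/Tfeb cross was found for 5 members (3.76% of all genes), and a higher effect for 0 (2.24% of all genes). These were Ctsd, Hexa (-0.49), Galc (-0.62), Asah1 (-0.58) and Grn (-0.56), of which Galc, the galactosylceramidase of myelin lipid breakdown, was at 0.21 in the Flcn cross and -0.40 in the Flcn/Tfeb cross. Of 43 members, 6 had a difference above 0, and 46.6% of all genes did.

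In the Flcn/Tfe3 cross, Ctsd again was the member called. In set B it was at 449.2, 435.4 and 525.7 CPM in the controls and at 530.7, 668.8, 548.1, 610.2, 615.7 and 700.9 CPM in the libraries labelled Flcn/Tfe3 DKO. In set C it was at 309.5, 308.2, 338.9, 286.9 and 325.9 CPM in the controls and 430.8, 423.2, 390.4 and 445.9 CPM in the DKO libraries. Within each set every DKO library lay above every control, although the DKO libraries of set C lay at or below the level of the set B controls. With the set as a term, the log2 fold change was 0.41 ± 0.09 (95% interval 0.24 to 0.58, adjusted p = 0.029 by edgeR). The fold changes were 0.39 ± 0.13 within set B and 0.39 ± 0.13 within set C, where the adjusted p values by edgeR were 0.752 and 0.078.

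The size of the Ctsd difference was stable while its call was not. Leaving out each library in turn gave 0.38 to 0.44, and Ctsd was called in 8 of these 18 fits (adjusted p 0.022 to 0.107 by edgeR). The call was lost without DKO replicate 2, 4, 5, 7, 8 or 10 and without control replicate 1, 2, 4 or 7. DESeq2, which called 0.771% of all genes, called it in the cross with an adjusted p of 8.33e-05. By edgeR the call was lost with Xist as a covariate (adjusted p = 0.159), with the mitochondrial share as a covariate (0.086) and without a filter on low counts (0.058), at log2 fold changes of 0.37, 0.39 and 0.42.

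By edgeR 1 of 43 members was called in this cross and 0.377% of 12456 genes were (0.337% higher and 0.0401% lower). Above 0 were 27 members against 51.9% of all genes, and the median was 0.05 against 0.01. Leaving out libraries in turn took that median to as little as 0.014 (without DKO replicate 10), 0.015 (without control replicate 3) and 0.020 (without control replicate 1), and it was 0.029 without DKO replicate 5 or control replicate 8. The groups, with the sets pooled, overlapped for all 43 members (0.12% of all genes were separated higher and 0.00803% lower). Only Tpp1 joined Ctsd among members higher at an unadjusted p under 0.05 (3.67% of all genes), at 82.8 to 129.7 CPM in the controls (median 111.6) and 96.2 to 146.7 CPM in the DKO libraries (median 124.2). Its log2 fold change was 0.22 ± 0.11 (adjusted p = 0.696 by edgeR) and the groups overlapped. No member was lower at that threshold (0 of 43, against 3.48% of all genes). Medians by class were 0.05 for the proteases, 0.08 for the glycosidases, -0.06 for the sulfatases, -0.08 for the lipid enzymes, -0.22 for the phosphatases or nucleases and 0.17 for the activators.

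The 4 members that had separated the groups of the Flcn cross besides Ctsd overlapped in the Flcn/Tfe3 cross. Hexa was at 25.8 to 66.8 CPM in the controls (median 42.7) and 38.4 to 60.5 CPM in the DKO libraries (median 47.1), with a log2 fold change of 0.14. Grn was at 149.7 to 384.6 CPM (median 212.2) against 183.0 to 435.0 CPM (median 267.3), with 0.17. Asah1 had medians of 28.1 and 33.2 CPM (0.18) and Aga of 28 and 30.2 CPM (0.16). Leaving out libraries in turn gave 0.084 to 0.23 for Hexa, 0.11 to 0.25 for Grn, 0.10 to 0.24 for Asah1 and 0.066 to 0.24 for Aga. Acp5, the member with the largest log2 fold change in the Flcn cross, had the lowest value here (-0.56, medians of 3.22 and 3.73 CPM before the set is taken into account).

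Behind these values near 0 the sets pointed in different directions for several members. Hexa was 39.5 to 40.7 CPM in the controls of set B and 46.1 to 60.5 CPM in its DKO libraries (0.38), but 25.8 to 66.8 CPM and 38.4 to 47.2 CPM in set C (-0.12). Aga was at 0.60 in set B and -0.29 in set C, Asah1 at 0.47 and -0.14, and Ctss, a cysteine cathepsin of antigen-presenting cells, at 0.53 and -0.40. Sgsh, the heparan sulfatase, was at -0.56 in set B and at 0.29 in set C. In set B the groups did not overlap for Ctsd, Ctss and Hexa, which were higher (3 of 43 members, against 1.7% of all genes), and for Pla2g15 and Sgsh, which were lower (2 of 43, against 1.27%). In set C they did not overlap for Acp2 and Ctsd, which were higher (2 of 42, against 3.83% of all genes), and for Ctsl, which was lower (1 of 42, against 2.3%), counts that are near those shares. The median over members was 0.12 in set B (27 of 43 above 0) and -0.07 in set C (17 of 42 above 0).

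Within set C the cysteine cathepsins Ctsl and Ctsh were the members called, both lower. These are 2 of 42 members, near the 4.68% of all 12169 genes called in that set, so the count is no result about the members. Ctsl, an endopeptidase, was at 386.8, 385.6, 279.3, 327.0 and 397.3 CPM in the controls of set C and 237.3, 229.6, 242.8 and 257.8 CPM in its DKO libraries. The groups did not overlap, and the log2 fold change was -0.59 (adjusted p = 0.023 by edgeR within the set). Ctsh, an aminopeptidase, was at 199.1, 343.3, 87.1, 170.8 and 249.3 CPM in the controls and 92.4, 95.8, 110.7 and 109.2 CPM in the DKO libraries (-1.07, adjusted p = 0.023 by edgeR). Its groups overlapped, as control replicate 6 held the lowest value of all. In set C, 8.78% to 18.4% of reads lay on no gene in the controls and 7.92% to 10.5% in the DKO libraries. Mitochondrial genes took 3.01% to 7.80% and 2.72% to 4.27% of counts. Among the controls, replicate 6 had the lowest of both shares and the lowest Ctsl and Ctsh. Control replicate 5 had the highest of both shares and the highest Ctsh. The part of this in Ctsl and Ctsh was not tested within the set.

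In set B these 2 cathepsins were at 0.27 (Ctsl) and 0.28 (Ctsh), and 0 of 43 members were called (0.0606% of 13191 genes). Over all genes, 6.56% passed an unadjusted p under 0.05 in set B and 21.3% did in set C. The difference between the sets was tested directly, in a fit added after the data were seen. It was -0.82 ± 0.22 for Ctsl and -1.31 ± 0.34 for Ctsh (adjusted p = 0.053 and 0.052 by edgeR), and for Ctsd it was 0.05 ± 0.17. By this test 0 of 43 members were called and 1.3% of 12456 genes were. Without adjustment, at a p under 0.05, 11 of 43 members differed, 7 of them lower in set C. That count is near the 22% of all genes that differed and is no result about the members. Among the 11 were Aga (-0.84), Lgmn (-0.77), the asparaginyl endopeptidase that matures other cathepsins, and Acp2 (0.58), with adjusted p values of 0.080 to 0.087 by edgeR.

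**Figure D5:**
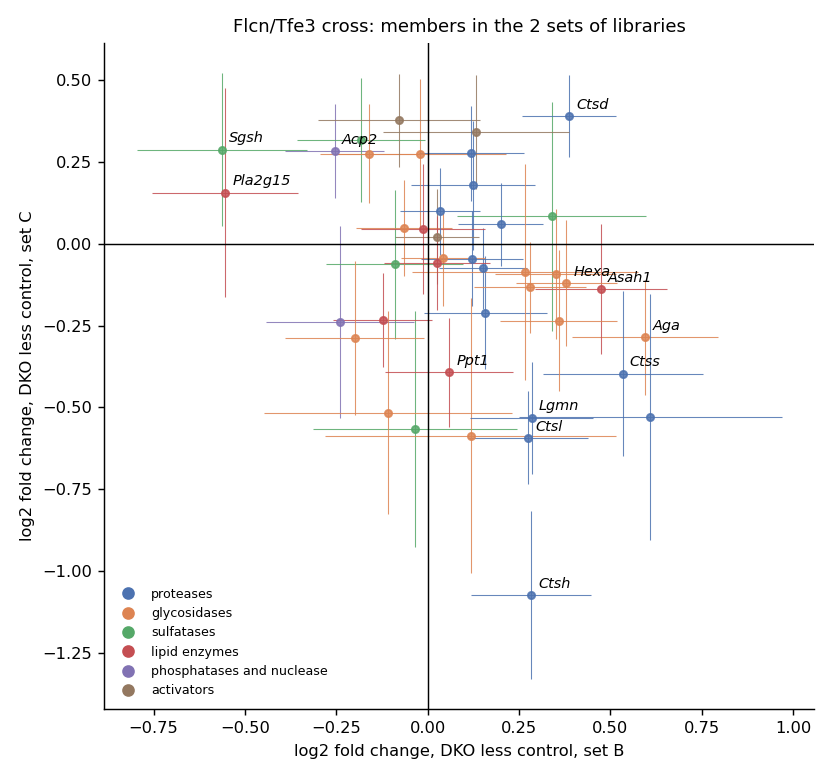
Log2 fold change of each member in set B (horizontal axis) and set C (vertical axis) of the Flcn/Tfe3 cross, DKO against control, with bars of 1 SE. Ctsd lies at 0.39 in both sets. Ctsh (0.28 and -1.07) and Ctsl (0.27 and -0.59) are the members called in set C and lie right of 0 and below it, and Sgsh (-0.56 and 0.29) lies on the opposite side of both axes. Colours give the class, and Acp5, not tested in set C, is not drawn.

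Markers of other cells also differed between the sets. The macrophage markers summed to 262.0 to 294.3 CPM in the controls and 280.2 to 356.4 CPM in the DKO libraries of set B, and to 168.5 to 229.4 CPM and 140.3 to 209.4 CPM in set C. Red blood cell markers summed to 2124.5 to 7802.1 CPM in the controls and 1430.8 to 1889.8 CPM in the DKO libraries of set C, without overlap, and overlapped in set B (3635.1 to 5946.3 and 3233.1 to 6205.2 CPM). All 5 of them were lower in the cross at an unadjusted p under 0.05, and 0 were called. Principal cell markers summed to 532.6 to 633.7 CPM in the controls and 431.4 to 546.4 CPM in the DKO libraries of set C, with overlap. In set B they summed to 709.4 to 765.0 CPM and 633.8 to 818.8 CPM, also with overlap. Of the 7 principal cell markers 4 were above 0 in the cross (median 0.19) and 0 were called. At an unadjusted p under 0.05 by edgeR, 3 of them were higher and 2 lower. In the cross as a whole 6 of 12 macrophage markers were above 0 and 0 were called. Intercalated cell markers summed to 180.3 to 285.4 CPM in the controls and 288.4 to 446.2 CPM in the DKO libraries, and of these Atp6v0d2 was called (log2 fold change 1.127). Of the 5 thick ascending limb markers 3 were above 0 (median 0.08), with Umod called (0.71) and Cldn16 at -0.19. The part of all these markers in the levels of Ctsd, Ctsl and Ctsh was not tested.

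Of the 27 further luminal proteins, 11 of 24 tested were above 0 in the Flcn/Tfe3 cross and 0 were called. The amidase Naaa (-0.40) and the ribonuclease Rnaset2b (-0.58) were lower at an unadjusted p under 0.05. Of the 7 genes of tagging and sulfatase activation 2 were above 0. The members' summed level was 3489.8 to 3624.8 CPM in the controls and 3798.3 to 4104.7 CPM in the DKO libraries of set B, without overlap, and 2941.2 to 3188.3 CPM and 3056.0 to 3393.7 CPM in set C, with overlap.

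Set against the Flcn KO effect, the Flcn/Tfe3 DKO effect on Ctsd differed by -0.41 ± 0.13 on the log2 scale (95% interval -0.67 to -0.15), with an adjusted p of 0.661 by edgeR. In this comparison 0 of 43 members and 0 of 13209 genes (0%) were called by edgeR, and DESeq2 called 0 members. Without adjustment, at a p under 0.05, Gm2a (0.41) and Tpp1 (0.42) had the higher effect in the Flcn/Tfe3 cross (3.46% of all genes), and Ctsd, Manba (-0.92), Ppt1 (-0.48) and Acp5 (-1.63) the lower (3.96% of all genes). Of the 43 members 16 had a difference above 0, and 52.3% of all genes did.

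Set against the Flcn/Tfeb DKO effect, the Flcn/Tfe3 DKO effect on Ctsd was higher by 0.40 ± 0.17 (95% interval 0.07 to 0.73, adjusted p = 0.363 by edgeR). Again 0 of 43 members were called by edgeR, where 3 of 13637 genes (0.022%) were, and DESeq2 called 0 members. Without adjustment, at a p under 0.05, Ctsb, Ctsd, Tpp1, Scpep1, Glb1, Galc, Arsb, Psap and Gm2a had the higher effect in the Flcn/Tfe3 cross (9 members, 7.56% of all genes) and Manba the lower (4.6% of all genes). Above 0 were 27 of the 43 members and 50.3% of all genes. Of these, Psap, Tpp1, Gm2a and Ctsb stood well above the rest of the Flcn/Tfeb cross in its control replicate 3 (for Ctsb 209.4 CPM, against 117.9 to 136.0 CPM in the other 6 libraries). Without control replicate 2 of that cross, and with its control replicate 3 kept, 1 member (Tpp1) was called. The share of all genes called in that fit is not given here, so the count is no result about the members. The 3 comparisons between crosses share libraries, and each cross has its own controls and its own libraries, so that a difference between crosses and a difference in how the libraries were made cannot be told apart.

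For the 9 members with TCACGTG in the promoter window, the values across crosses can be set beside those of the members without it. In the Flcn cross 7 of 9 were above 0 (median 0.10), and 21 of 28 without the word were (median 0.06). In the Flcn/Tfeb cross 1 of 9 was above 0 (median -0.19) and 8 of 29 without it (median -0.09). In the Flcn/Tfe3 cross the numbers were 5 of 9 (median 0.05) and 18 of 29 (median 0.03). Of the 5 members separated in the Flcn cross, 3 had a promoter window: Ctsd held TCACGTG, Grn held TCATGTG and Hexa held neither.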

How the data were processed

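Kidney RNA of 35 libraries was made into QuantSeq 3′ libraries, and reads were trimmed with bbduk and aligned to mm10 with STAR by the authors, who deposited HTSeq-count gene counts without normalization. The submitters' processing notes also name Trim Galore. Of 31053 gene IDs, 99.9% were in GENCODE release M21. Tallies of reads on no gene (7.92% to 19.9% in the 26 libraries that list them) or on several places (33.7% to 49.4%) were left out, as was 1 column that belongs to no sample. No libraries of a group and set were alike within sampling noise (63 comparisons, chi-square per degree of freedom 2.72 to 40.3). Each cross was fitted in edgeR 4.0.16 (R 4.3.3) with filterByExpr, TMM factors and the two-sided quasi-likelihood test, with the set as a term in the Flcn/Tfe3 cross. Crosses were compared by interaction terms in joint fits, and p values were adjusted by Benjamini-Hochberg over all genes tested. CPM use TMM-scaled totals within a cross. They are not per length and are not compared between genes, and levels set across crosses were scaled separately. Depth sets a floor of 3 counts. Intervals are approximate ranges for the log2 fold change, from its SE, which rests on the spread between libraries. They make no allowance for the small number of libraries. Alternatives were DESeq2 1.42.0, relative log expression factors, no filter or a mean of 10 counts, Xist or the mitochondrial share as covariate, the replicate number as block, each set alone, a threshold of 0.1 and each library left out. Library values are given for members called, members whose groups do not overlap in the Flcn cross and the extremes of each class there, and the further members named were picked with their values known. The members, the lists and the genes named were chosen with earlier results of these data known.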

Additional observations from a re-analysis of the deposited data

Results flagged for a closer look

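Of 62 groups of 4 to 10 libraries examined, 1 held a library far from the others, where chance flags about 1 in 20 groups. Gm2a was at 67.6 CPM in replicate 1 of the libraries labelled Flcn/Tfeb DKO, and the nearest of the other 3 was at 51.7 CPM. Groups of 3, such as the controls of this cross, were not examined in this way.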

How the results depend on the processing

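The number of members called depended on the fit. In the Flcn cross it was 3 with DESeq2, 3 at an adjusted p under 0.1, 4 with the mitochondrial share as covariate and 2 without a filter, and Ctsd was called under every alternative run there. In the Flcn/Tfe3 cross it was 0 with Xist or the mitochondrial share as covariate, 0 without a filter, 0 in set B alone and 2 in set C alone, and 0 to 1 when libraries were left out in turn. Set B alone gave a median log2 fold change of 0.12 there, set C alone -0.069. DESeq2 called 1 member in the Flcn/Tfeb DKO effect less the Flcn KO effect, and for the Flcn/Tfe3 less the Flcn/Tfeb DKO effect leaving out libraries gave 0 to 1. The share of all genes called in these fits is not given here, so these counts are no result about the members. The replicate numbers did not pair the libraries (correlations of deviations -0.39 to 0.33), and with the replicate block 0 members were called in the Flcn/Tfe3 cross, where Ctsd was 0.38 with an adjusted p of 0.9999 by edgeR, while other counts of called members did not change. Values near 0 changed sign: in the Flcn cross Acp2 was -0.0013 with DESeq2, -0.00052 with relative log expression factors, -0.010 with Xist, -0.0011 without a filter and -0.0012 with the block; in the Flcn/Tfeb cross Ctsd was 0.0019 (DESeq2), 0.0033 (relative log expression), 0.0036 (Xist), 0.16 (mitochondrial share) and 0.054 (block), Hexa 0.0064, 0.0044 and 0.050 (DESeq2, relative log expression and Xist), and Aga 0.063 (Xist) and 0.025 (block). With the mitochondrial share as covariate in that cross, Asah1 was -0.17, Grn -0.24, Gm2a 0.063, Tpp1 0.29 and Psap 0.89. Of these, Gm2a (-0.70), Tpp1 (-0.63) and Psap (-0.68) were not near 0 without the covariate. In set C alone Hexa was -0.12, Aga -0.29 and Asah1 -0.14, and in set B alone Grn was -0.079, Ctsh 0.28 and Ctsl 0.27. Leaving out libraries gave -0.070 to 0.067 for Acp2 in the Flcn cross and, in the Flcn/Tfeb cross, -0.11 to 0.080 for Ctsd, -0.15 to 0.20 for Hexa, -0.23 to 0.32 for Aga, -0.10 to 0.15 for Asah1, -0.13 to 0.095 for Grn and -1.02 to 0.44 for Psap. The cause of these changes was not tested. Members at a few CPM, such as Acp5, rest on few counts, and 3 controls limit the Flcn/Tfeb cross.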
